A study of Mus musculus with 4 samples.

Results

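Retnla and 9 further genes of alternative macrophage activation (Ear2, Chil3, Mrc1, Cd163, Folr2, Lyve1, Mgl2, Clec10a and Il4ra) were followed in single cells of aged mouse kidney after BPTES or vehicle. They are 10 of the 31054 genes in the deposited tables, matched by symbol, and each matched 1 row. The genes were chosen on earlier results of the same comparison, and Retnla in particular on its low UMI count under BPTES. Their values between the groups are therefore given as a description, and nothing is read from how many of them pass a test.

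The samples were kidneys of male C57BL/6 mice aged 19 months that had received BPTES, an inhibitor of the glutaminase GLS1, or its vehicle DMSO for 1 month. Each group had 2 libraries, and the labels do not say whether these came from separate animals, so p-values measure only the spread between libraries. Kidneys were digested with liberase, and for each library 20000 CD45- and 9000 CD45+ sorted cells of the same tissue were mixed before droplet capture, so that immune cells are over-represented by a fixed sort. Unique molecular identifiers (UMIs, each standing for 1 captured transcript molecule) were counted per gene and barcode. The libraries held 296360271 and 249881074 UMIs (BPTES) and 297947661 and 296928739 UMIs (DMSO) in 17907 to 20091 barcodes. After filters and removal of predicted doublets, 46738 of 76278 barcodes were kept, 10849 to 12076 per library, and any 2 libraries shared between 31 and 43 of the kept barcodes. Below, values stand in the order BPTES replicate 1, BPTES replicate 2, DMSO replicate 1, DMSO replicate 2. CPM is the number of UMIs of a gene per 1000000 UMIs of all genes in the same cells.

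Alternative activation is the state that macrophages enter on exposure to IL-4 or IL-13. Both cytokines bind receptors that contain the IL-4 receptor alpha chain, Janus kinases phosphorylate STAT6, and STAT6 switches on a group of secreted proteins and surface lectins. In kidney, cells with this profile are known from the repair phase after injury and from fibrosis, and the mannose receptor, CD163, FOLR2 and LYVE1 also mark tissue-resident and perivascular macrophages that need no IL-4. Il4ra is the receptor chain of the group; Retnla (RELM-alpha), Ear2 and Chil3 (Ym1) encode secreted proteins; Mrc1, Mgl2 and Clec10a encode lectins of the cell surface; Cd163, Folr2 and Lyve1 encode surface receptors of resident macrophages.

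Because a STAT6 site is the textbook route from IL-4 to Retnla, the sequence before the transcription start was read for the members whose values the results turn on. RefSeq promoters (GRCm38.p6) were found for 8 of the 10 members, not for Lyve1 and Clec10a. Up to 250 bases before the start were searched on both strands for TTCNNNNGAA, the spacing that STAT6 prefers, for TTCNNNGAA, the spacing of other STAT proteins, and for TTGCNNAA, a C/EBP-type word (no 2 matches in a member overlapped). Retnla, on chr16:48842359-48842550 (plus strand), Ear2, on chr14:44102404-44102653 (plus strand), Mrc1, on chr2:14229164-14229391 (plus strand), and Mgl2, on chr11:70130107-70130328 (plus strand), read as follows from 5′ to 3′, with matched words in capitals.
Retnla: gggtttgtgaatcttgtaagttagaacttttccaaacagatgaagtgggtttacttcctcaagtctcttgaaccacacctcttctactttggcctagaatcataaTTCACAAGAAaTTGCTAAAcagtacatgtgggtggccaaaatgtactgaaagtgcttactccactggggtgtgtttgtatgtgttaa
Ear2: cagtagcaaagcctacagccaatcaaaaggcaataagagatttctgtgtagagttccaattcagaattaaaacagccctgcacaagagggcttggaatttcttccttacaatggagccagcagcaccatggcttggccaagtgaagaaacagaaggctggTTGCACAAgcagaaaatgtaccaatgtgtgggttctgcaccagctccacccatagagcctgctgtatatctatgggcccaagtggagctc
Mrc1: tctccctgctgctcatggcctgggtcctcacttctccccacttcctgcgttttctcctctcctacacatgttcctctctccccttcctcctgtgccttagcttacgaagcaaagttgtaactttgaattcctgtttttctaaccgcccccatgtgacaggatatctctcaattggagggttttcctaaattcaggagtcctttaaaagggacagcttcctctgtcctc
Mgl2: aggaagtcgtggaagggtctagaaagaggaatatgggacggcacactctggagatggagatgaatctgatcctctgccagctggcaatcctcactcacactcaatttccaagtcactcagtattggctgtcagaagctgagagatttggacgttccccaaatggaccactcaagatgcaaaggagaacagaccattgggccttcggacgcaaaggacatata
The printed sequences end where the GENCODE gene starts, so the last 58 (Retnla), 22 (Mrc1) and 28 (Mgl2) bases before the RefSeq start were searched but are not printed. The Retnla promoter held 1 STAT6-spaced word, TTCACAAGAA, 145 to 136 bases before the RefSeq start, and 1 C/EBP-type word, TTGCTAAA, which began 134 bases before it. Ear2 held a C/EBP-type word, TTGCACAA, and Chil3 a word of the other STAT spacing, TTCTTAGAA. None of the 3 words was found before Mrc1, Mgl2, Cd163, Folr2 or Il4ra. Of 32851 mouse promoters searched over the same length, 5.85% held the STAT6-spaced word, 7.02% the other STAT word and 9.56% the C/EBP-type word. A match is a run of letters and not evidence of binding.

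Retnla (ENSMUSG00000061100, chr16:48842551-48844461) was carried by a small number of very bright cells, and the DMSO libraries held more of them. Over all barcodes it had 778, 1770, 2158 and 5088 UMIs, or 2.63, 7.08, 7.24 and 17.1 CPM. Both BPTES libraries lay below both DMSO libraries, although BPTES replicate 2 and DMSO replicate 1 were close. Pooled by group, BPTES had 0.383 times the DMSO level (95% exact interval 0.366 to 0.401). That interval, like the others given here, covers counting error only. Over all barcodes 46.6% of 20168 genes with at least 50 UMIs were lower in both BPTES libraries and 11.9% were higher in both, so that this order alone was common.

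Fewer barcodes carried Retnla in the BPTES libraries. Barcodes with any Retnla UMI numbered 16, 30, 89 and 104, and barcodes with 10 or more UMIs numbered 2, 5, 16 and 24. These 47 bright cells held between 94.8% and 97.5% of all Retnla UMIs in each library. The brightest cell had 379, 633, 329 and 834 UMIs, so the brightest cells of the groups overlapped. The mean over the bright cells was 375, 345, 128 and 207 UMIs, higher in both BPTES libraries. In BPTES the 5 brightest barcodes held 98.5% and 97.5% of the UMIs, and in DMSO 63.9% and 56.7%. Outside the bright cells most positive barcodes held 1 UMI. Proximal tubule cells, which should not make this macrophage protein, had a UMI in 0.0524%, 0.0551%, 0.262% and 0.340% of cells, and T cells in 0%, 0.0892%, 0.251% and 0.259%. A share of that size in any class was read as background.

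**Figure D1:**
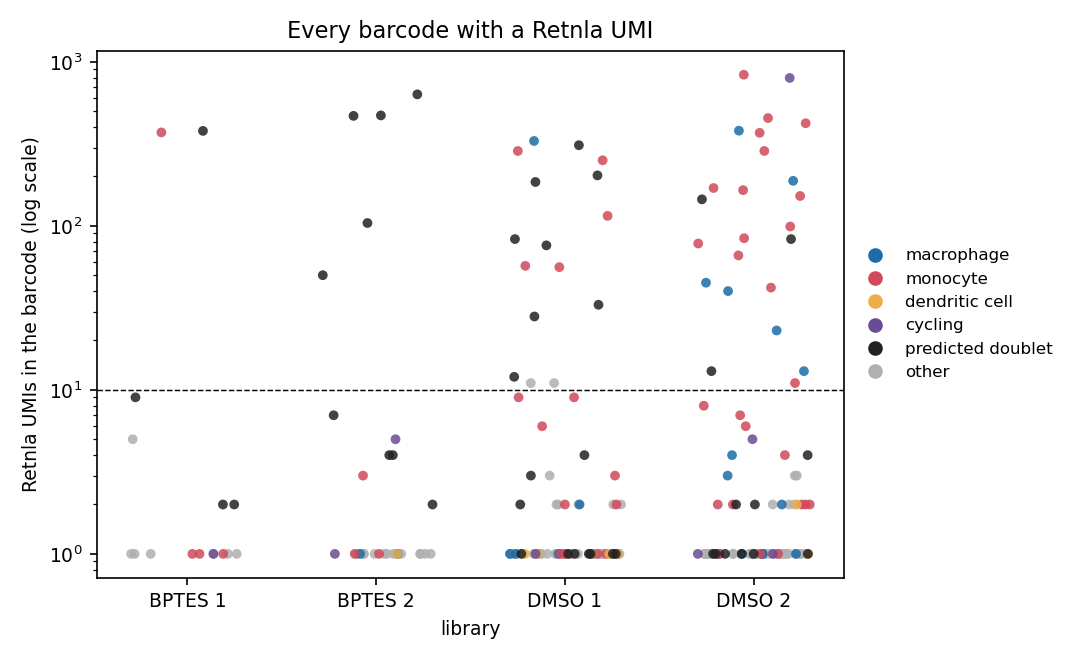
Retnla UMIs of every barcode with at least 1, by library, on a log axis, coloured by the class the barcode was placed in or by a predicted doublet. Points at the dashed line have 10 UMIs. DMSO libraries hold 16 and 24 barcodes at or above 10 UMIs against 2 and 5 in the BPTES libraries, and 6 of the 7 bright BPTES barcodes are predicted doublets.

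Many of the bright barcodes were called doublets, that is, droplets predicted to hold 2 cells. Predicted doublets held 392, 1743, 946 and 255 of the Retnla UMIs, or 50.4%, 98.5%, 43.8% and 5.01% of each library's total. Of the bright barcodes 1 of 2, 5 of 5, 8 of 16 and 3 of 24 were called doublets. The bright cells were also deep: their median total was 75493 UMIs, against 16251 in macrophages, 23760 in monocytes and 33434 in dendritic cells. The BPTES doublets carried genes of other cell types. When doublets were kept and clustered with the rest, those with Retnla fell among plasma cells (390 UMIs) in BPTES replicate 1, and among neutrophils (794), proximal tubule cells (471) and plasma cells (468) in BPTES replicate 2. In DMSO replicate 1 they fell among macrophages (330), cycling cells (269), B cells (203) and dendritic cells (142), and in DMSO replicate 2 among neutrophils (146) and macrophages (87). The size of the group difference rested on this step. With doublets removed, all kept cells held 386, 23, 1201 and 4821 Retnla UMIs, and BPTES had 0.0750 times the DMSO level (0.0677 to 0.0829). With doublets included it had 0.388 times that level (0.370 to 0.406).

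Macrophages, monocytes and dendritic cells were clusters of kept cells named from marker genes, with the 10 members left out of the clustering. Macrophages numbered 828, 714, 911 and 912 cells, monocytes 519, 466, 659 and 319, and dendritic cells 251, 227, 396 and 296. In the 3 classes together Retnla had 374, 8, 1141 and 3976 UMIs, in 4, 6, 27 and 42 cells. BPTES had 0.106 times the DMSO level (0.0949 to 0.117). Of the 374 UMIs in BPTES replicate 1, 371 came from 1 cell. On the log2 scale the ratio was −3.24, and it was −7.71 without BPTES replicate 1 and −1.99 without DMSO replicate 2. In macrophages Retnla had 0, 2, 334 and 703 UMIs, and was found in 0, 2, 5 and 14 cells, or 0%, 0.280%, 0.549% and 1.54% of them. The 2 positive BPTES macrophages held 1 UMI each. In DMSO replicate 1, 329 of the 334 UMIs were in 1 cell. The pooled BPTES level in macrophages was 0.00268 times the DMSO level (0.000324 to 0.00969). The log2 difference of Retnla fitted in macrophages, −8.37 ± 0.78 (SE), was −7.27 without BPTES replicate 1 and −11.90 without BPTES replicate 2, which leaves no BPTES UMI. That SE was derived from the test statistic, and with 0 and 2 BPTES UMIs it does not measure the precision of the value. Monocytes carried more of the transcript, at 374, 5, 802 and 3270 UMIs in 4, 3, 17 and 26 cells, and BPTES had 0.128 times the DMSO level (0.115 to 0.142). The log2 difference of Retnla fitted in monocytes, −3.28 ± 2.11 (SE), was −8.30 without BPTES replicate 1 and −1.35 without DMSO replicate 2. Dendritic cells had 0, 1, 5 and 3 UMIs in 0, 1, 5 and 2 cells, and none of these cells held more than 2. Of the cells outside these classes, 1 DMSO cell in the cycling cluster held 797 UMIs.

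**Figure D2:**
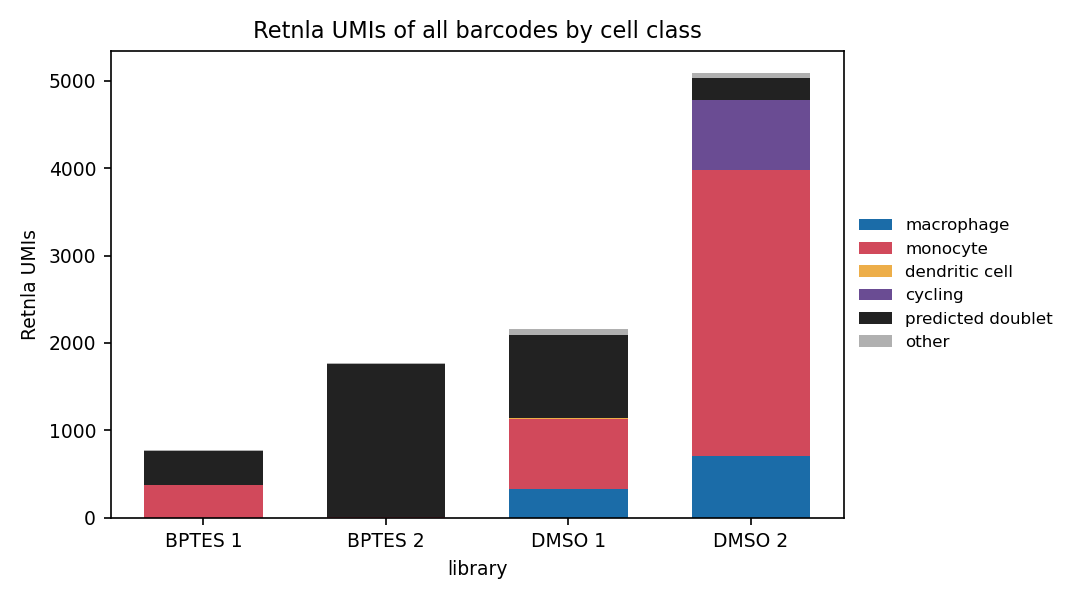
Retnla UMIs of all barcodes of each library (778, 1770, 2158 and 5088), stacked by the class the barcode was placed in. Predicted doublets hold 1743 of the 1770 UMIs in BPTES replicate 2, and the monocyte class holds the most UMIs of any 1 class in DMSO replicate 2 (3270).

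Which class carried Retnla in DMSO depended on how cells were clustered. The monocyte class held 67.6% of the Retnla UMIs of kept DMSO cells. That share was 31.1% with a mitochondrial limit of 25% instead of 50%, 28.3% with the members among the clustering genes, and 7.25% with doublets kept, when macrophages held 69.1%. At a Leiden resolution of 2 it was 0.133%, and clusters left unnamed by their markers together held 67.9%. The clusters named monocyte there held 1, 0, 1 and 7 Retnla UMIs. The unnamed clusters included 1 of 819 cells that scored best for the macrophage list, with 7 of 7 markers detected. It stayed unnamed because markers of another class led it. The Retnla UMIs of each unnamed cluster were not counted. The bright cells themselves carried genes of several classes. Of the 47, 46 had C1qa, a complement gene of macrophages, 46 had H2-Ab1, an antigen-presentation gene, and 40 had Fn1, fibronectin. Fewer had markers of the monocyte subsets: Ly6c2 of classical monocytes was found in 13 and Treml4 of nonclassical monocytes in 13. In the monocyte class itself 601 of 1963 cells had Ly6c2 and 1195 had Treml4. C1qa stood at 2157 CPM in the bright cells, against 3928 CPM in macrophages and 1449 CPM in monocytes. Adgre1 and Ms4a7, also on the macrophage marker list, were nearer the monocyte level. Adgre1 stood at 235 CPM, against 688 CPM in macrophages and 295 CPM in monocytes. Ms4a7 stood at 200 CPM, against 655 and 194 CPM. Fn1 stood at 774 CPM, against 26.2 CPM in macrophages and 522 CPM in monocytes. Genes of other cell types were also found in the 47: Lrp2 of proximal tubule in 24, Cd3e of T cells in 20, Jchain of plasma cells in 11 and Cd79a of B cells in 7. Their part was not tested.

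The same cells carried several other members. Mrc1 was detected in 46 of the 47, Mgl2 in 45, Il4ra in 45, Ear2 in 40 and Clec10a in 36. Cd163 was detected in 19, Folr2 in 7, Chil3 in 4 and Lyve1 in 1. Because the bright cells were deep, they were set beside other deep cells of the 3 classes, with at least 30000 UMIs each, in the DMSO libraries (6 and 18 bright cells against 626 and 564 without a Retnla UMI). Ear2 stood at 751 and 610 CPM in bright cells and at 150 and 97.6 CPM in the others. Mrc1 stood at 678 and 751 CPM against 447 and 599, and Mgl2 at 1149 and 1074 CPM against 642 and 688. Clec10a was lower in the bright cells, at 64.3 and 62.6 CPM against 131 and 141. Cd209a, a gene of type 2 dendritic cells, was also lower, at 114 and 105 CPM against 242 and 308, and Fn1 was higher, at 825 and 758 CPM against 118 and 134. The bright cells were picked by their Retnla count, so these contrasts are descriptions.

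Sub-clustering of the 3 classes, with the members and the genes called between the groups left out, placed part of the transcript in 1 group of cells. Sub-cluster 8 was led by Lyz1, Fn1, Ecm1, Rai14, Spp1 and Dcstamp, and 84.0% of its cells were of the monocyte class. It had 68, 58, 133 and 92 cells and 371, 5, 1070 and 1589 Retnla UMIs, in 1, 3, 13 and 18 cells. Most of its cells thus had no Retnla UMI. Mrc1 there stood at 298, 316, 604 and 702 CPM and Mgl2 at 432, 1037, 1238 and 1180 CPM. Ear2 stood at 36.7, 212, 373 and 418 CPM. In this sub-cluster Il4ra was also lower in both BPTES libraries, Cd163 and Folr2 overlapped and Lyve1 was under 50 UMIs. Clec10a and Chil3 went the other way, higher in both BPTES libraries. Within its DMSO cells, Ear2 stood at 988 and 922 CPM in the 5 and 10 bright cells and at 287 and 281 CPM in the 120 and 74 cells without Retnla. Mrc1 and Mgl2 had no common direction there: Mrc1 stood at 816 and 655 CPM in bright cells against 591 and 731, and Mgl2 at 1187 and 1240 CPM against 1221 and 1160. Sub-cluster 13, of 37, 27, 45 and 69 deep cells led by the neutrophil genes S100a8 and S100a9 beside Il23r and Tcrg-C1, held 1, 0, 57 and 2247 Retnla UMIs. Genes of several cell types thus led it, and 57.9% of its cells were of the monocyte class. Of the 3976 Retnla UMIs that DMSO replicate 2 had in the 3 classes, 2247 were thus in this sub-cluster.

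**Figure D3:**
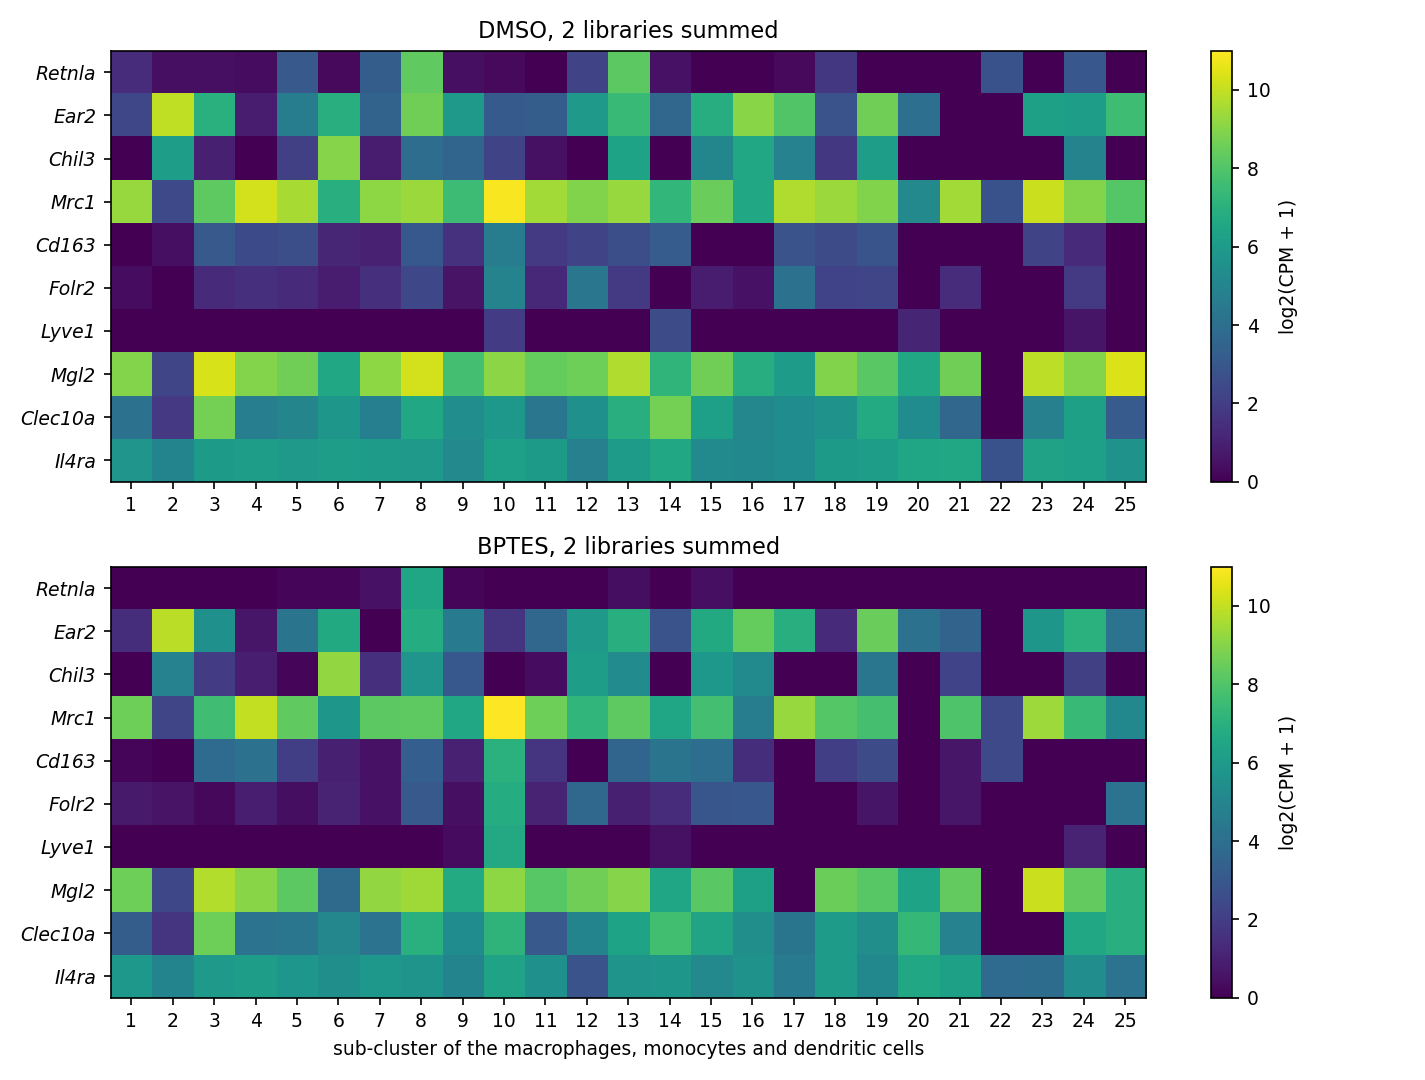
Levels of the members (rows) in the 25 sub-clusters of macrophages, monocytes and dendritic cells (columns), as log2(CPM + 1) over the 2 summed libraries of DMSO (top) and of BPTES (bottom). Retnla is highest in sub-clusters 8 and 13 under DMSO, Ear2 in sub-cluster 2 in both groups and Mrc1 in sub-cluster 10 in both groups, and some columns rest on few cells.

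Genes whose pattern was most like that of Retnla were ranked by Pearson's r of log2(CPM + 1) over 68 sums (17 classes in 4 libraries, which share depth and free RNA within a library). The first were AU022793 (r = 0.74), Lyz1 (0.70), Cacna1f (0.70), A130077B15Rik (0.69), Gm31522, Clec4a4, Dppa3, Gdf3 and Siglec1 (all 0.65) and Bach2os (0.64). Lyz1 encodes a lysozyme, and Siglec1 a sialic acid receptor of macrophages. Among the members Mrc1 ranked 55 (0.56), Ear2 97 (0.53) and Mgl2 152 (0.51), while Il4ra ranked 1894. In DMSO macrophages, the 5 and 14 cells with Retnla were compared with the 906 and 898 without. Of the cells with Retnla, only 1 of 5 and 8 of 14 held 3 or more Retnla UMIs. The largest ratios of CPM belonged to Tarm1 (115 and 70.4), Gm45238 (115 and 46.9), Ear2 (65.7 and 34.4), Sdc1 (16.4 and 23.5), Gm30978 (229 and 15.6), Ak8, Scd1, Cd300lg, Aqp9 and Htra4. Mrc1 was at ratios of 0.91 and 0.78 and Mgl2 at 1.57 and 1.89. The positive cells were deeper, with medians of 37559 and 47166 UMIs against 15757 and 19660, and each ratio rests on few cells. Except for Ear2, at 894 and 279 CPM in the positive cells, it also rests on few UMIs: in these cells Tarm1 stood at 12.7 and 3.45 CPM and Gm45238 at 6.34 and 2.30 CPM.

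Ear2 (ENSMUSG00000072596, chr14:44102654-44103534), a ribonuclease of the eosinophil-associated family, was foremost a gene of nonclassical monocytes in these kidneys. Monocytes as a class had 376, 316, 328 and 305 CPM, and the groups overlapped in share of positive cells (69.2%, 62.7%, 68.1% and 64.3%). The log2 difference fitted by edgeR over all genes, BPTES over DMSO, was 0.17 ± 0.10 (SE, 2 libraries a group). Sub-cluster 2, led by the nonclassical genes Ace and Cd300e, had 927, 931, 1043 and 925 CPM. In dendritic cells and macrophages the level was lower under BPTES. Dendritic cells had 27.4, 32.6, 90.4 and 121 CPM (log2 difference −1.85 ± 0.17), and both BPTES libraries lay below both DMSO libraries. Macrophages had 173, 61, 387 and 409 UMIs (−1.34 ± 0.37), with both BPTES libraries below both DMSO libraries in CPM. In DMSO macrophages without Retnla, Ear2 stood at 13.6 and 8.13 CPM. In the 5 and 14 DMSO macrophages with Retnla it stood at 894 and 279 CPM. All BPTES macrophages had 11.04 and 4.76 CPM, which overlaps the DMSO cells without Retnla. The log2 difference without the Retnla-positive cells was not tested. The log2 difference in all macrophages was −2.06 without BPTES replicate 1 and −0.91 when BPTES replicate 2 was left out instead. It was −1.11 at a mitochondrial limit of 25%, and −2.34 without the sub-clusters led in part by lymphocyte or tubule genes. Neutrophils went the other way, at 181 CPM under BPTES and 126 CPM under DMSO (means of 2 libraries), with both BPTES libraries higher. In the sub-clusters of the 3 classes Ear2 was lower in both BPTES libraries in 4 of 15, higher in none, overlapping in 6 and under 50 UMIs in 5. Over all pairs of a sub-cluster and a gene with 50 or more UMIs, 21.9% were lower in both BPTES libraries and 22.6% higher. The family holds near-identical genes that could share or lose reads: over the 3 classes Ear1 had 2, 5, 9 and 4 UMIs, Ear6 1, 0, 0 and 0, and Ear10 0, 1, 0 and 1.

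Chil3 (ENSMUSG00000040809, chr3:106147554-106167564), a chitinase-like protein that lacks chitinase activity, was a gene of classical monocytes. In monocytes it stood at 119, 253, 105 and 147 CPM (log2 difference 0.61 ± 0.47), with overlapping groups. Sub-cluster 6, led by the classical genes Vcan, Hp and F13a1, had 451, 678, 421 and 781 CPM. In macrophages it was scarce, at 7.09, 2.03, 1.43 and 0.611 CPM, higher in both BPTES libraries. In the sub-clusters it was lower in both BPTES libraries in 2, higher in 2, overlapping in 2 and under 50 UMIs in 9, beside the same 21.9% and 22.6% of all pairs. The order in macrophages is the reverse of the one for Retnla, with a log2 difference of 2.19 ± 0.74. That difference was −0.23 when predicted doublets were kept, −0.11 at Leiden resolution 2 and 1.04 without BPTES replicate 1. Without the sub-clusters led in part by lymphocyte or tubule genes it was 4.28. Chil4, a close relative of Chil3, and the Retnla relative Retnlb had no UMI in the 3 classes of any library.

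Mrc1 (ENSMUSG00000026712, chr2:14229392-14332057), the mannose receptor CD206, was lower under BPTES in all 3 classes. Macrophages had 7739, 5728, 13981 and 21947 UMIs, or 494, 447, 767 and 1031 CPM, in 80.1%, 84.7%, 86.6% and 90.8% of cells. The log2 difference was −0.93 ± 0.15. Monocytes had 140, 133, 417 and 545 CPM (−1.77 ± 0.15, and −0.64 at Leiden resolution 2), and dendritic cells 107, 129, 165 and 237 CPM (−0.80 ± 0.20). Both BPTES libraries lay below both DMSO libraries in each class. After each cell was thinned to 2000 UMIs, 48.2% of BPTES and 69.0% of DMSO macrophages were positive, and 13.3% and 35.3% of monocytes. Before thinning the shares were 82.4% and 88.7% in macrophages and 30.4% and 57.2% in monocytes. Of 15 sub-clusters with at least 20 cells in every library, 13 had Mrc1 lower in both BPTES libraries, 1 overlapped and 1 had under 50 UMIs. The shares over all pairs were 21.9% and 22.6%, as above. Sub-cluster 10, the cells with the highest Mrc1 level, led by Ccl8, Pf4, Gas6 and Stab1, went against this, at 2219, 1819, 2285 and 1805 CPM in 27, 22, 55 and 192 cells.

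Mgl2 (ENSMUSG00000040950, chr11:70130329-70137550) and Clec10a (ENSMUSG00000000318, chr11:70156197-70170834) encode the galactose-type lectins CD301b and CD301a. They are neighbouring paralogs, and how reads matching both were counted is not given in the sources used here. Mgl2 stood at 321, 331, 689 and 764 CPM in dendritic cells (log2 difference −1.19 ± 0.08), at 243, 280, 457 and 742 CPM in monocytes (−1.16 ± 0.28), and at 347, 421, 574 and 431 CPM in macrophages (−0.39 ± 0.18). The monocyte log2 difference was −2.44 at Leiden resolution 2. In macrophages BPTES replicate 2 and DMSO replicate 2 were close, and 76.0% of BPTES and 75.2% of DMSO cells had an Mgl2 UMI. Type 2 dendritic cells, sub-cluster 3 with Cd209a and Tnip3, had 791, 911, 1167 and 1474 CPM of Mgl2. Clec10a was foremost a gene of dendritic cells, at 195, 182, 263 and 254 CPM (−0.49 ± 0.07). Within sub-cluster 3 Clec10a stood at 362, 394, 387 and 443 CPM, with overlapping groups. It stood at 62.1, 59.6, 74.3 and 118 CPM in monocytes (−0.62 ± 0.25) and at 20.7, 16.1, 26.5 and 31.8 CPM in macrophages (−0.66 ± 0.14). For both genes the BPTES libraries were below the DMSO libraries in all 3 classes. In the sub-clusters, Mgl2 was lower in both BPTES libraries in 7 of 15, higher in none, overlapping in 7 and under 50 UMIs in 1. Clec10a was lower in 6, higher in 2, overlapping in 5 and under 50 UMIs in 2, and both stand beside 21.9% lower and 22.6% higher over all pairs.

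**Figure D4:**
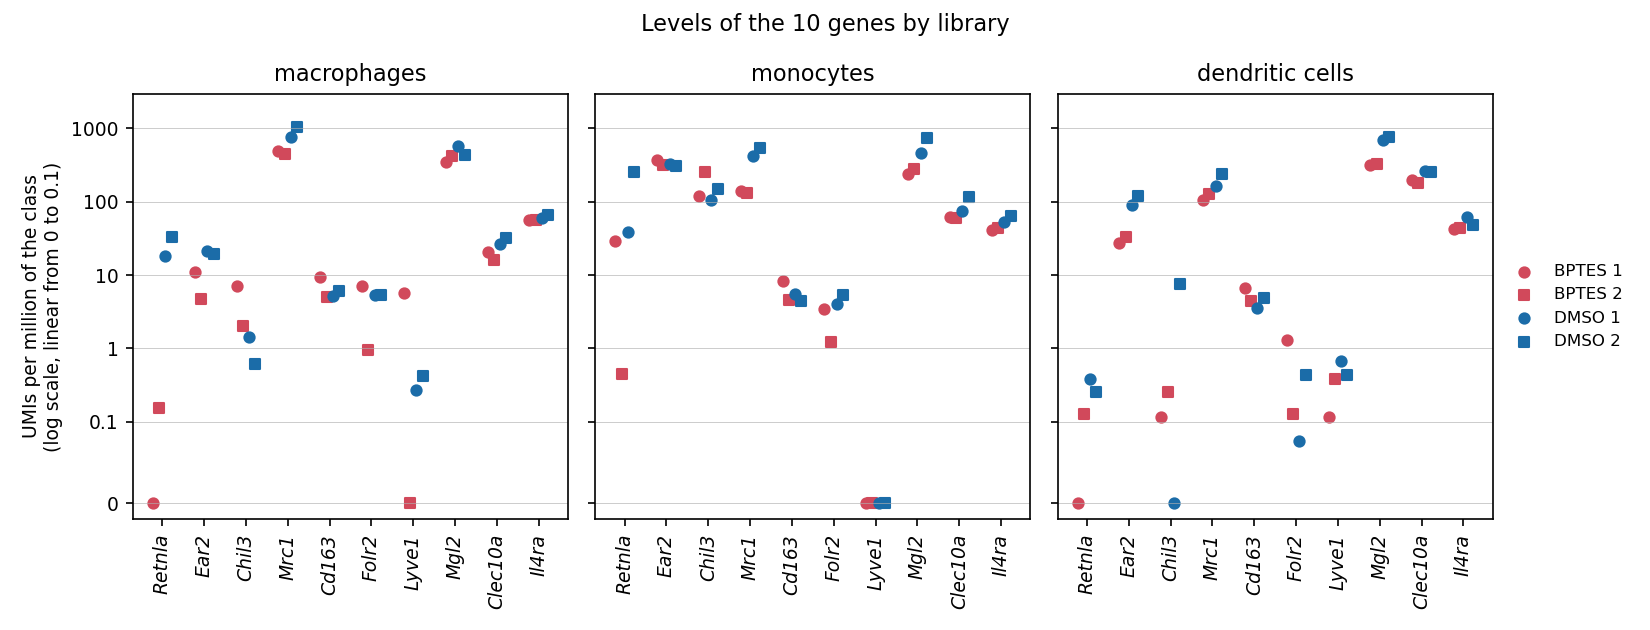
Level of each member (CPM, log axis that is linear near 0) in macrophages, monocytes and dendritic cells, 1 point per library, BPTES in red and DMSO in blue. Mrc1, Mgl2 and Clec10a lie lower in both BPTES libraries in each class, whereas Ear2 and Chil3 overlap between the groups in monocytes.

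The receptors of resident macrophages were scarce. Cd163 (ENSMUSG00000008845, chr6:124304656-124330527), the haemoglobin-haptoglobin receptor, had 149, 64, 93 and 130 UMIs in macrophages, or 9.51, 4.99, 5.10 and 6.11 CPM, with overlapping groups (log2 difference 0.38 ± 0.30). In the sub-clusters Cd163 was higher in both BPTES libraries in 5 of 15, lower in none, overlapping in 2 and under 50 UMIs in 8, where 22.6% of all pairs were higher and 21.9% lower. Folr2 (ENSMUSG00000032725, chr7:101839988-101857194), a folate receptor, had 112, 12, 99 and 115 UMIs in macrophages. Between 85.8% and 97.6% of its UMIs in each library were in proximal tubule cells (2249, 2154, 1545 and 1573 UMIs), and the part of free tubule RNA in its macrophage level was not tested. Lyve1 (ENSMUSG00000030787, chr7:110850607-110863239), a hyaluronan receptor, had 89, 0, 5 and 9 UMIs in macrophages and none in monocytes. The 89 UMIs lay in 2 cells of sub-cluster 10, and endothelium held 27.3% to 91.5% of all its UMIs. Sub-cluster 10 held 84, 32, 65 and 55 UMIs of Cd163 and 96, 5, 73 and 76 of Folr2.

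Il4ra (ENSMUSG00000030748, chr7:125552120-125579474), the receptor chain for IL-4 and IL-13, stood at like levels in the 3 classes. Macrophages had 56.6, 56.4, 60.7 and 66.7 CPM (log2 difference −0.17 ± 0.08), monocytes 41.0, 44.3, 52.9 and 64.1 CPM (−0.41 ± 0.13), and dendritic cells 42.7, 44.4, 62.9 and 48.6 CPM (−0.39 ± 0.14). The BPTES libraries lay below the DMSO libraries in each class. T cells, which also use the receptor, had 54.4, 60.6, 49.0 and 54.7 CPM, with overlapping groups. Within the sub-clusters Il4ra was lower in both BPTES libraries in 8 of 15, higher in 1, overlapping in 5 and under 50 UMIs in 1, against 21.9% lower and 22.6% higher of all pairs.

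Counted together, 6 of the 10 members were lower in both BPTES libraries and 1 higher in macrophages, 6 and 0 in monocytes, and 7 and 0 in dendritic cells. Over all genes tested, 27.5% were lower in both BPTES libraries and 27.6% higher in macrophages, 34.7% and 26.8% in monocytes, and 22.9% and 31% in dendritic cells. The member counts include members that did not pass the filter on low counts, while these shares cover only genes that passed it. In dendritic cells Retnla (1 UMI under BPTES and 8 under DMSO) and Lyve1 (4 and 14) were such members. Over the 3 classes summed, 5 members were lower and 1 was higher, beside 30.7% and 29.5% of 14811 genes. In the edgeR fit over all genes, 9, 9 and 6 members passed the filter on low counts. Past an adjusted p of 0.05, 2 were lower in macrophages (Retnla and Mrc1, beside 1.08% of 13835 genes), 1 in monocytes (Mrc1, beside 4.54% of 12907 genes) and 3 in dendritic cells (Ear2, Mgl2 and Clec10a, beside 1.32% of 12338 genes). Retnla passed that filter through the DMSO libraries alone. None was higher, beside 0.52%, 6.8% and 0.608% of genes. Since this contrast served to choose the members, nothing is read from these counts. The members' median log2 difference was −0.39, −0.62 and −0.64, and that of all genes tested 0.00, −0.01 and −0.00.

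Markers of other cells moved with some of these values. In the monocyte class the 7 macrophage markers, none at 0, summed to 3444, 2786, 6964 and 7618 CPM, and the 6 nonclassical monocyte markers to 1120, 954, 588 and 465 CPM. In macrophages the same 7 macrophage markers summed to 10996, 11316, 13854 and 15180 CPM. The 5 cycling markers there summed to 36.0, 42.4, 69.2 and 83.5 CPM, and the 8 proximal tubule markers to 502, 339, 292 and 217 CPM. In dendritic cells the 5 markers of mature dendritic cells summed to 73.5, 69.3, 402 and 273 CPM. The 6 markers of type 2 dendritic cells summed there to 1537, 1618, 2070 and 2040 CPM. Those of type 1 dendritic cells, also 6, summed to 3090, 2991, 1948 and 2661 CPM. The part of this mix of types in the class values was not tested. Sub-clusters 16 and 17, led by Gdf15 and Spic and by Cd5l and Fcna, had 94 and 106 cells in DMSO replicate 1 and 1 to 13 in any other library. Macrophages included sub-clusters led in part by lymphocyte or tubule genes. The members were therefore also fitted without such cells. Within sub-clusters 2, 6 and 19 alone, those led by genes of classical or nonclassical monocytes, the log2 difference was −1.23 for Mrc1 and −0.95 for Mgl2, against −1.77 and −1.16 in the whole class. In sub-cluster 2 both were scarce, with Mrc1 at 2.7, 5.3, 5.0 and 3.4 CPM and Mgl2 at 5.4, 2.8, 3.8 and 4.2 CPM. In sub-cluster 6 Mrc1 stood at 59.1, 52.5, 129 and 89.1 CPM and Mgl2 at 10.4, 14.7, 121 and 25.8 CPM. Their cells numbered 222, 184, 111 and 78 in sub-cluster 2 and 98, 145, 128 and 47 in sub-cluster 6. The part of this mix was not tested. Without the mature dendritic cells of sub-cluster 20 the log2 difference was −1.92 for Ear2 and −1.26 for Mgl2. In macrophages without the mixed sub-clusters it was −0.79 for Mrc1.

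The pathway around the members was tested with 75 further genes in 6 lists, drawn up with earlier results of these data known. UMIs summed per library and class entered the quasi-likelihood fit of edgeR, and p-values were adjusted over all genes by Benjamini-Hochberg. In macrophages, 62 genes were tested, 0 rose and 6 fell under BPTES, beside 0.52% and 1.08% of all genes. At an unadjusted edgeR p under 0.05 there were 5 higher and 21 lower, beside 10.4% and 11.8% of all genes. DESeq2 called 1 higher and 14 lower, beside 1.63% and 2.39% of the genes it tested. None of the 10 tested genes of IL-4 and IL-13 signalling passed (median log2 difference −0.01), nor did any of 9 regulators (−0.22) or 16 IL-4 targets (−0.32). At an unadjusted edgeR p under 0.05 these lists had 6, 1 and 5 genes, beside 22.2% of all genes, and DESeq2 called 1, 0 and 2, beside 4.01%. The receptor partner Il13ra1 stood at 0.56 ± 0.11 (edgeR adjusted p = 0.055), the common gamma chain Il2rg at −0.38 ± 0.09 (0.088) and the transducer Stat6 at 0.24 ± 0.09 (0.20). The regulators Pparg, at 0.55 ± 0.23 (0.27), and Irf4, at −0.11 ± 0.45 (0.91), did not pass either. Arg1, arginase 1 and the best known IL-4 target, had 289, 201, 5 and 91 UMIs in 9, 16, 5 and 12 macrophages, higher in both BPTES libraries but without passing (2.85 ± 1.02, 0.26). Nos2, the mark of classical activation, had 0, 0, 1 and 1 UMIs.

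Of the macrophage genes that fell, 3 of 13 tested were resident or perivascular genes. Pf4, a chemokine, stood at 118, 93.7, 228 and 251 CPM (log2 difference −1.18 ± 0.11, edgeR adjusted p = 0.013). Gas6, a ligand for clearance receptors, fell by 0.89 on the log2 scale (0.026), and the growth factor Igf1 fell by 0.83 (0.042). Sub-cluster 10, which Pf4 and Gas6 lead, had 27, 22, 55 and 192 cells, and its part in these values was not tested. Another 2 of 10 belonged to the classical activation list: Il12b, a subunit of IL-12, at 7, 3, 71 and 57 UMIs (−3.21 ± 0.44, 0.030), and Socs3, an inhibitor of cytokine signalling (−1.10 ± 0.15, 0.039). Il12b passed the filter on low counts through the DMSO libraries alone. The sixth, Itga6, an integrin of serous cavity macrophages, fell by 0.52 (0.042). Leaving out BPTES replicate 1 gave 2 calls, 1 of them among the 6, and leaving out BPTES replicate 2 gave 0. Leaving out a DMSO library gave 24 calls (replicate 1) or 14 calls (replicate 2). Leaving out the mixed sub-clusters kept 3 calls, those of Pf4, Il12b and Itga6.

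**Figure D5:**
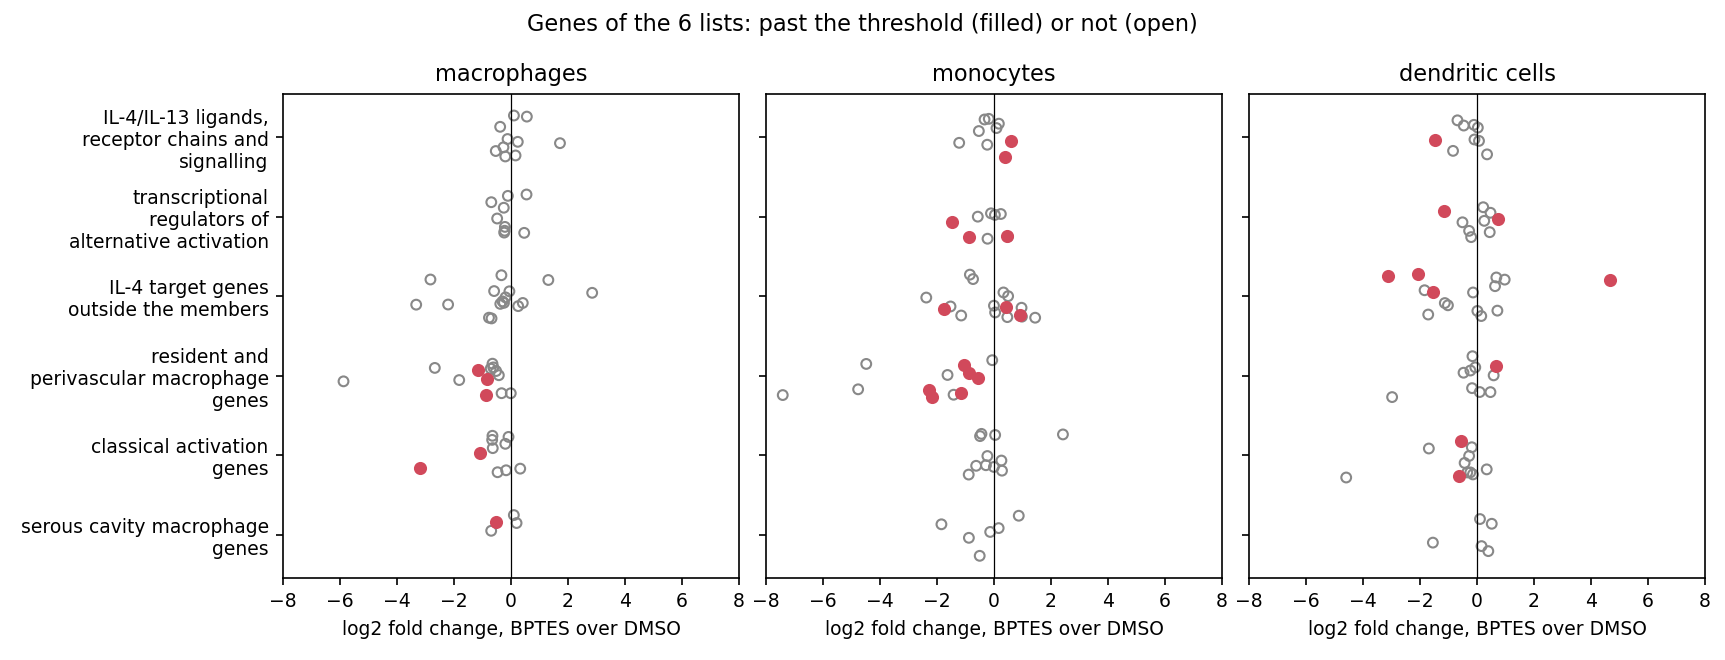
Log2 difference (BPTES over DMSO, edgeR) of each tested gene of the 6 pathway lists in the 3 classes, filled where the adjusted p was under 0.05 and open otherwise. In macrophages 6 genes fell and 0 rose, in monocytes 9 fell and 5 rose, and in dendritic cells 7 fell and 3 rose.

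In monocytes 63 list genes were tested, 5 rose and 9 fell, beside 6.8% and 4.54% of all genes. The resident and perivascular list held 6 of the 9 that fell, of 12 tested (median log2 difference −1.53). Pf4 stood at 17.6, 22.3, 96.0 and 106 CPM (−2.30 ± 0.15, edgeR adjusted p = 0.0039), and Maf, a transcription factor of resident macrophages, at 73.8, 72.1, 167 and 146 CPM (−1.06 ± 0.09, 0.0048). The carbonyl reductase gene Cbr2 fell by 2.18 (0.028), and Gas6 fell by 1.15 (0.011). The macrophage markers of this class moved the same way, as given above. In signalling, Il13ra1 rose, at 104, 105, 71.4 and 71.4 CPM (0.59 ± 0.08, 0.012), and so did Stat6 (0.40 ± 0.08, 0.033). Of the regulators Klf4 rose (0.44 ± 0.10, 0.039), while Ppargc1b fell by 0.88 (0.018) and Egr2 fell by 1.47 (0.042). Of the IL-4 targets Fn1 rose (0.92 ± 0.15, 0.019), Cd36, a fatty acid receptor, rose (0.43 ± 0.11, 0.049), and the chemokine gene Ccl22 fell by 1.76 (0.014). These directions rested on which cells were called monocytes. At Leiden resolution 2 the sign turned for Klf4, Cd36, Cbr2, Gas6, Maf and Selenop, another resident gene that fell. None of the 14 calls remained there or with predicted doublets kept. In sub-clusters 2, 6 and 19 alone it turned for Klf4 and Ppargc1b. None of 11 classical activation genes and none of 6 serous cavity genes passed. At an unadjusted edgeR p under 0.05 each of these lists had 2, beside 30.4% of all monocyte genes, and DESeq2 called 0 and 2, beside 11.3%. In the fit of sub-clusters 2, 6 and 19 alone, 2 of the 14 calls remained, among them Egr2. None of the 14 remained when either BPTES library was left out, while 28 list genes were called with DMSO replicate 1 left out and 23 with DMSO replicate 2 left out.

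In dendritic cells 59 list genes were tested, 3 rose and 7 fell, beside 0.608% and 1.32% of all genes. Ccl22, an IL-4 target and a gene of mature dendritic cells, stood at 18.3, 23.9, 173 and 189 CPM (log2 difference −3.14 ± 0.13, edgeR adjusted p = 0.00051). The other targets that fell were Il4i1, an amino acid oxidase (−2.07 ± 0.26, 0.042), and Pdcd1lg2, the ligand PD-L2 (−1.53 ± 0.17, 0.010). Arg1 passed the test in the other direction (4.68 ± 0.63, 0.031), but on few cells, and it passed the low-count filter through the BPTES libraries alone. Its 121, 42, 4 and 5 UMIs came from 1, 5, 4 and 4 dendritic cells, and with predicted doublets kept the log2 difference was −0.016. Of the signalling genes Cish fell by 1.48 (0.027), and of the regulators Egr2 fell by 1.14 (0.017) and Myc rose (0.72 ± 0.13, 0.041). Of the classical activation list Cd80 fell by 0.58 (0.041) and Socs3 fell by 0.62 (0.019). Mature dendritic cells, sub-cluster 20 with Ccr7 and Fscn1, numbered 4, 6, 36 and 30. Without them 5 of the 10 calls remained (Ccl22, at −2.55, Cish, Egr2, Arg1 and Socs3). Leaving out BPTES replicate 2 gave 3 calls, and leaving out DMSO replicate 2 gave 19.

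Paralogs of the members differed widely in count. In the 3 classes Il21r had 2409, 1978, 3824 and 3617 UMIs, while Chil4 had none. Retnlg, a relative of Retnla expressed in neutrophils, had 35, 29, 187 and 60 UMIs in the 3 classes and fell in monocytes (log2 difference −1.84 ± 0.41, edgeR adjusted p = 0.040). There the 6 neutrophil markers summed to 167, 114, 244 and 314 CPM, and their part was not tested. Asgr2, a lectin related to Clec10a, fell in dendritic cells, from 15.2 and 14.8 CPM in DMSO to 4.92 and 3.46 CPM in BPTES (−1.86 ± 0.20, 0.0088), and the receptor Il21r fell in monocytes (−0.67 ± 0.14, 0.035).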

How the data were processed

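Data were deposited UMI counts per gene and barcode of 4 libraries; per the submitters' processing notes they were made with Cell Ranger 8.0.1 on mm10, and the deposited counts are not normalized. The transgene row tdTomato was left out. Barcodes with at least 500 UMIs, 300 genes and at most 50% mitochondrial UMIs were kept (scanpy 1.11.5). The highest Scrublet scores were removed as doublets, at 0.4% of barcodes per 1000 barcodes. Clusters (3000 variable genes, 40 components, Leiden resolution 1) were named from 27 marker lists. Cells are not replicates, so counts were summed per library and class and tested with edgeR 4.0.16 (TMM, filterByExpr, robust quasi-likelihood), with Benjamini-Hochberg adjustment over all tested genes and a threshold of 0.05. The fit was also run on simulated counts, with the same spread for every gene and changes set only in well-counted genes. That run does not cover genes carried by few cells or nearly absent from a group. Depth per library is given in the report. Intervals are exact 95% binomial intervals for pooled UMIs. Each SE was derived as the absolute log2 difference over the square root of the edgeR F statistic. It is unreliable where a group has few UMIs. The members and lists were chosen with earlier results of these data known. The named genes were every member, up to 4 called genes per list and class with the largest change and no overlap between groups, 7 pathway genes in macrophages at any value, and the 10 genes most like Retnla by each of the 2 measures given. Gene positions are of the GENCODE annotation of GRCm38. Values of 1 list gene are not reported here, and it is included in the counts. Alternatives were DESeq2 1.42.0, RLE scaling, no low-count filter, a replicate block, each library left out, other cell filters and clusterings and, added after seeing the data, sets of sub-clusters left out. Whether deposited libraries share an animal is not given in the sources used here.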

Additional observations from a re-analysis of the deposited data

How the results depend on the processing

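Retnla values rest on few bright cells, and 1 cell set the value of a library more than once. Its log2 ratio over the 3 classes, BPTES over DMSO, was −3.24. It was −7.70 at Leiden resolution 2, −1.38 over all barcodes, −1.37 over barcodes passing the filters with doublets, and −8.45 without the brightest cell of each library (the last 2 chosen after seeing the data). Leaving out 1 library gave −7.71 (without BPTES replicate 1) to −1.99 (without DMSO replicate 2). The share of DMSO Retnla UMIs in monocytes was 67.6%, with 66.8% to 67.8% when 1 library was left out, 31.1% at the 25% mitochondrial limit, 7.25% with doublets kept, 0.133% at resolution 2 and 28.3% with the members among the clustering genes. Mrc1, Mgl2, Clec10a and Il4ra kept their sign in the 3 classes under every alternative run, but not their size in monocytes. At resolution 2 Mrc1 stood at −0.64 (against −1.77) and Mgl2 at −2.44 (against −1.16), and with doublets kept Clec10a stood at −0.05 (against −0.62). Ear2 kept its sign in macrophages and dendritic cells and turned in monocytes at resolution 2 (−0.05). Chil3 and Cd163 turned in macrophages and in monocytes, and Folr2 in macrophages, under 1 to 3 of them each.

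List genes called in macrophages numbered 6, and 15 with DESeq2, 25 with no low-count filter, 2 with the replicate block, 11 with doublets kept and 3 without the mixed sub-clusters, with 0 to 24 when 1 library was left out. In monocytes they numbered 14, and 25 with DESeq2, 30 with no filter, 9 at the 25% limit, 0 with doublets kept, 1 at resolution 2, 7 with the members clustered on, and 3 in sub-clusters 2, 6 and 19 only, with 0 to 28 when 1 library was left out. In dendritic cells they numbered 10, and 23 with no filter, 16 with the replicate block and 6 without sub-cluster 20, with 3 to 19 when 1 library was left out. The signs of some called genes turned in other cell sets. In monocytes at resolution 2 these were Klf4 (−0.12), Cd36 (−0.24), Cbr2 (0.20), Gas6 (0.66), Maf (0.036) and Selenop (0.050), and in sub-clusters 2, 6 and 19 Klf4 (−0.10) and Ppargc1b (0.12). In dendritic cells Arg1 turned with doublets kept (−0.016), and 1 of the 10 called genes, not named here, turned at the 25% limit and with the members clustered on. The cause was not tested. Deviations of same-numbered libraries were hardly correlated over genes (r = −0.05, −0.08 and 0.08 in the 3 classes, 2 pairs). With 2 libraries per group this cannot tell whether the numbers pair them. With the block 11 of the 14 monocyte calls, 2 of the 6 in macrophages and 9 of the 10 in dendritic cells were kept.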
